A study of Mus musculus with 10 samples.

Results

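Lipoprotein receptors and the proteins that move the cholesterol they bring in were followed here as 8 genes of the expression table of bEnd.3 cells, a mouse brain endothelial cell line immortalised with polyomavirus middle T antigen. The 8 genes, out of 27024 rows of the table that carry a gene name, were taken by name for their roles and were chosen with the difference between the groups already known. They are the receptors *Vldlr*, *Lrp8*, *Lrp1* and *Scarb1*, the receptor regulator *Mylip*, the endosomal cholesterol exporters *Npc1* and *Npc2*, and the cytosolic sterol carrier *Stard4*. Their differences between the groups are therefore given as a description and without p-values.

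The study asked what the loss of surface mucins does to the transcriptome of brain endothelial cells, and measured it by bulk RNA sequencing. All cells carried the wild-type genotype and were kept for 16 h in growth medium with fetal bovine serum. One group of 5 samples (replicates 1, 2, 3, 5 and 6) received 5 nM StcE, a bacterial metalloprotease that cleaves mucin-domain glycoproteins. The other group of 5 samples (replicates 1, 2, 3, 4 and 5) received saline. A catalytically inactive enzyme was not among the groups, so cleavage and exposure to a bacterial protein cannot be told apart, and all samples come from a single line. Nothing in the sample records says that the replicates were separate cultures, so the error terms measure the spread between these samples, which may be technical.

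Members of the lipoprotein receptor family bind particles through their apolipoproteins, enter the cell through coated pits and release their cargo in endosomes. Cholesterol freed in late endosomes and lysosomes is picked up by NPC2, handed to NPC1 in the limiting membrane and then carried between membranes by proteins such as STARD4. In brain endothelium the same receptors face the blood on one side and the brain on the other, and LRP8 also takes up selenoprotein P, the carrier that brings selenium to the brain.

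Expression was measured as FPKM, fragments per kilobase scaled to the mapped fragments of the library. The lengths that fitted the values of most genes were those of all annotated exons of a gene joined. *Scarb1* has 8500 such bases and a longest transcript of 3093, and *Lrp8* has 10514 and 6627. Levels set side by side between genes therefore depend in part on these lengths. Whole fragments could be recovered from the values for most genes and summed to between 21918326 and 29011314 per saline sample and between 21859342 and 33140289 per StcE sample (exact two-sided permutation test of the means, p = 0.278). All 10 endothelial markers examined were well expressed, with means from 16.5 to 485.9 FPKM, whereas markers of pericytes and smooth muscle, astrocytes, microglia and neurons each had means below 1 FPKM. Of the fibroblast markers 1 exceeded that level, *Pdgfra* at a mean of 1.24 FPKM, and it did not pass the test. The endothelial markers summed to 1760 to 1899 FPKM in saline and to 1721 to 1792 FPKM after StcE, with 1 marker higher and 5 lower. Their part in the results on the lipoprotein genes was not tested.

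Promoter sequence is shown for *Vldlr*, the receptor that was lower after StcE, and for *Mylip*, the regulator of receptor breakdown. The sequences are the 250 bases before an annotated start, from RefSeq on GRCm38.p6, with the GC box (GGGCGG, or CCGCCC on the other strand) and the CCAAT box (read as ATTGG on the other strand) in capitals. The *Vldlr* window lies at chr19:27216770-27217019 on the plus strand, before an annotated start at 27217020 and inside the gene, which begins at 27216484. The *Mylip* window lies at chr13:45389492-45389741 on the plus strand.
Vldlr: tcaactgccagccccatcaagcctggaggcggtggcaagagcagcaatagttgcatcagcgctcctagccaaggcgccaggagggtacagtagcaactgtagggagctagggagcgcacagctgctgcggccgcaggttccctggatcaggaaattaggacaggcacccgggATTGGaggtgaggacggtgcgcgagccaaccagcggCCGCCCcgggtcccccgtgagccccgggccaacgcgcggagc
Mylip: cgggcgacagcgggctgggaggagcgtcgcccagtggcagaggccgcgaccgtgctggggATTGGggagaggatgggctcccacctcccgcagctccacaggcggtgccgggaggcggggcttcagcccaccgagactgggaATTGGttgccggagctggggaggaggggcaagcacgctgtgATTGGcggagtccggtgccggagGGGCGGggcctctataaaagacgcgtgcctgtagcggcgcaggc
The *Vldlr* window shown holds 1 GC box and 1 CCAAT box, and the *Mylip* window holds 1 GC box and 3 CCAAT boxes. Another *Vldlr* window, chr19:27216234-27216483 before the annotated start of the gene, holds no GC box and no CCAAT box. Among all 32851 windows of that length, 32.7% held a GC box and 33.8% a CCAAT box, so neither is rare, and the windows of *Lrp1* and *Npc2* held GC boxes as well. The sterol regulatory element searched on both strands (TCACNCCAC), to which SREBP factors bind, was in 1.05% of all windows, and the E box (CACGTG) in 6.02%. The nuclear receptor half-site (AGGTCA) was in 14.0% of all windows and in 1 of the windows of *Lrp8*. That window lies before an annotated start at 107830953, and all *Lrp8* windows lie inside the gene, which begins at 107802261. Neither the sterol regulatory element nor the E box was in any of the 8 windows matched to 5 members (*Vldlr*, *Lrp8*, *Lrp1*, *Mylip* and *Npc2*), which says only that these letters are absent from those windows.

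The 11062 genes that averaged at least 1 FPKM were tested with limma on log2(FPKM + 1), and a gene was called when its adjusted p was below 0.05. By this rule 11.9% of all tested genes were called, 5.52% higher and 6.41% lower after StcE, and the saline and StcE samples did not overlap in 10.7%. When all samples were scaled to the same total FPKM, the split moved from 611 higher and 709 lower to 272 higher and 518 lower. Of the 8 members, 7 passed the filter on low values. *Lrp8*, *Scarb1* and *Stard4* were called higher, *Vldlr* was called lower, and *Lrp1*, *Npc1* and *Npc2* were not called. Since the members were chosen with this difference known, their calls are a description and not a test. The 4 called members were also the 4 whose groups did not overlap. The median log2 fold change of the 7 was 0.05, beside -0.00066 over all genes tested. In bulk samples a change in RNA per cell and a change in the number of cells that express a gene cannot be told apart.

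**Figure D1:**
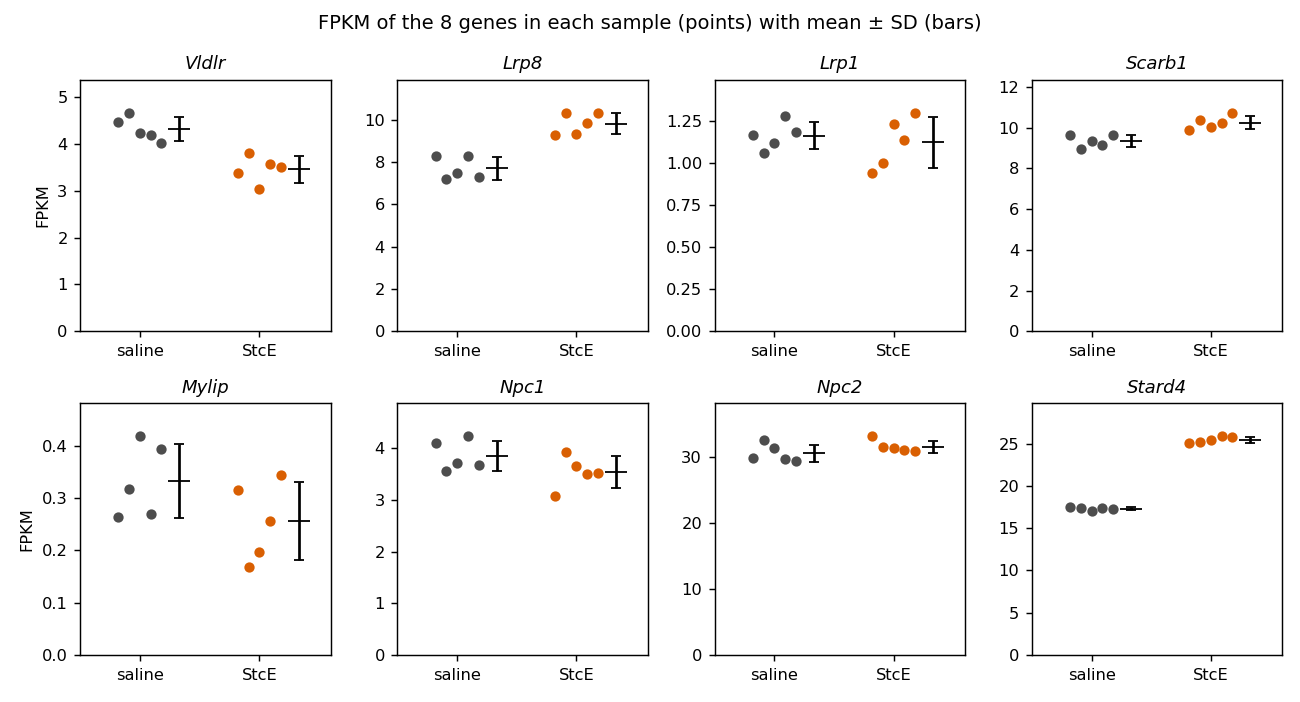
FPKM of the 8 lipoprotein receptor and sterol uptake genes in bEnd.3 cells, by sample (5 with saline, 5 with StcE). Points are samples and bars are means with the SD; the groups are separate for Vldlr, Lrp8, Scarb1 and Stard4 and overlap for Lrp1, Mylip, Npc1 and Npc2.

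*Vldlr* encodes the very-low-density lipoprotein receptor, which takes up triglyceride-rich particles and, in neurons, also receives reelin. Its level was 4.46, 4.67, 4.24, 4.19 and 4.02 FPKM in saline replicates 1 to 5. After StcE it was 3.37, 3.81, 3.03, 3.58 and 3.50 FPKM in replicates 1, 2, 3, 5 and 6. The highest StcE sample stood below the lowest saline sample. The means were 4.31 ± 0.253 FPKM in saline and 3.46 ± 0.287 FPKM after StcE (SD, n = 5 each), a log2 fold change of -0.25 with a standard error of 0.0502 and a 95% interval from -0.36 to -0.14. The values rest on 798 to 1366 fragments per sample. The gene lies on chromosome 19 from 27216484 to 27254231, plus strand.

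*Lrp8* encodes the apolipoprotein E receptor 2, the close relative of VLDLR that shares reelin as a ligand and binds selenoprotein P. Its level was 8.32, 7.19, 7.49, 8.28 and 7.28 FPKM in saline replicates 1 to 5. After StcE it was 9.31, 10.4, 9.34, 9.85 and 10.3 FPKM in replicates 1, 2, 3, 5 and 6. The lowest StcE sample stood above the highest saline sample. The means were 7.71 ± 0.546 and 9.83 ± 0.504 FPKM (SD, n = 5 each), with a log2 fold change of 0.32, a standard error of 0.0465 and a 95% interval from 0.21 to 0.42. *Lrp8* thus ranked 165 from the top of the 11062 genes tested by log2 fold change, on 1860 to 3628 fragments per sample. It lies on chromosome 4 from 107802261 to 107876840, plus strand, with 12 annotated transcripts that the gene-level values do not separate.

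The 2 reelin receptors therefore moved in opposite directions within the same samples. The ratio of *Lrp8* to *Vldlr* FPKM, taken within each sample, ran from 1.54 to 1.98 in saline with a mean of 1.79 ± 0.161 (SD, n = 5). After StcE it ran from 2.72 to 3.08 with a mean of 2.85 ± 0.155 (SD, n = 5). This ratio does not depend on how samples are scaled to one another.

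*Lrp1* encodes a large endocytic receptor with many ligands, among them apolipoprotein E remnants, protease and inhibitor complexes and amyloid beta. It was the least expressed of the receptors, at 1.17, 1.06, 1.12, 1.28 and 1.18 FPKM in saline replicates 1 to 5. After StcE it was 0.940, 1.00, 1.23, 1.14 and 1.30 FPKM in replicates 1, 2, 3, 5 and 6. The StcE samples spread on both sides of the saline samples. The means were 1.16 ± 0.0799 and 1.12 ± 0.151 FPKM (SD, n = 5 each), and the log2 fold change of -0.03 had a 95% interval from -0.16 to 0.10. Without StcE replicate 1, the lowest sample, the estimate was 0.0032, of the opposite sign. *Lrp1* lies on chromosome 10 from 127538161 to 127621148, minus strand.

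*Scarb1* encodes scavenger receptor BI, which takes cholesteryl esters from high-density lipoprotein without taking up the particle. Its level was 9.65, 8.97, 9.35, 9.15 and 9.62 FPKM in saline replicates 1 to 5, and 9.90, 10.4, 10.0, 10.2 and 10.7 FPKM in StcE replicates 1, 2, 3, 5 and 6. The groups did not overlap, but the gap between them was 0.244 FPKM. The means were 9.35 ± 0.297 and 10.3 ± 0.331 FPKM (SD, n = 5 each), with a log2 fold change of 0.12, a standard error of 0.0297 and a 95% interval from 0.06 to 0.19. *Scarb1* was no longer past the threshold without saline replicate 2 (0.11), without saline replicate 4 (0.11) or with all samples at the same total FPKM (0.11). It lies on chromosome 5 from 125277087 to 125341094, minus strand.

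*Mylip* encodes a ubiquitin ligase, also named IDOL, that is induced by the sterol-sensing nuclear receptors LXR and marks lipoprotein receptors, VLDLR and LRP8 among them, for breakdown in lysosomes. It was barely detected, at 0.264, 0.317, 0.418, 0.270 and 0.395 FPKM in saline replicates 1 to 5. After StcE it was 0.316, 0.168, 0.196, 0.256 and 0.343 FPKM in replicates 1, 2, 3, 5 and 6. The groups overlapped, and the values rest on 15 to 36 fragments per sample. The means were 0.333 ± 0.0707 and 0.256 ± 0.0750 FPKM (SD, n = 5 each), and the gene stayed below the filter. It lies on chromosome 13 from 45389742 to 45412022, plus strand.

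*Npc1* and *Npc2* encode the partners that pass cholesterol out of late endosomes, NPC2 as a soluble carrier and NPC1 as the membrane protein that receives it. *Npc1* was at 4.10, 3.56, 3.72, 4.24 and 3.69 FPKM in saline replicates 1 to 5 and at 3.08, 3.93, 3.66, 3.50 and 3.52 FPKM in StcE replicates 1, 2, 3, 5 and 6. Its means were 3.86 ± 0.290 and 3.54 ± 0.306 FPKM (SD, n = 5 each), with a log2 fold change of -0.10 and a 95% interval from -0.22 to 0.02. Saline and StcE samples of *Npc1* overlapped. *Npc1* lies on chromosome 18 from 12189692 to 12236400, minus strand, and 5.31% of its exonic length overlaps genes on the opposite strand. The libraries mark strand, but whether the counting used it is not given in the sources used here.

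*Npc2* was by far the more abundant partner, at 29.9, 32.6, 31.4, 29.8 and 29.4 FPKM in saline replicates 1 to 5. After StcE it was 33.2, 31.6, 31.4, 31.1 and 30.9 FPKM in replicates 1, 2, 3, 5 and 6. The groups overlapped, with means of 30.6 ± 1.33 and 31.6 ± 0.926 FPKM (SD, n = 5 each). The log2 fold change was 0.05 with a 95% interval from -0.02 to 0.12. *Npc2* lies on chromosome 12 from 84754562 to 84773152, minus strand.

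*Stard4* encodes a soluble sterol carrier that moves cholesterol between the plasma membrane and the endoplasmic reticulum, and it is a known target of the sterol-responsive factor SREBP-2. It was at 17.5, 17.4, 17.1, 17.4 and 17.3 FPKM in saline replicates 1 to 5. After StcE it was at 25.1, 25.2, 25.5, 25.9 and 25.8 FPKM in replicates 1, 2, 3, 5 and 6. The groups were far apart, with 7.68 FPKM between the highest saline and the lowest StcE sample. The means were 17.3 ± 0.163 and 25.5 ± 0.349 FPKM (SD, n = 5 each), a ratio of 1.47. The log2 fold change was 0.53 with a standard error of 0.0197 and a 95% interval from 0.49 to 0.57, which placed *Stard4* at rank 59 from the top of all genes tested. Its replicates were also close to one another, with a coefficient of variation of 0.940% in saline and 1.37% after StcE. *Stard4* lies on chromosome 18 from 33199355 to 33213862, minus strand.

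**Figure D2:**
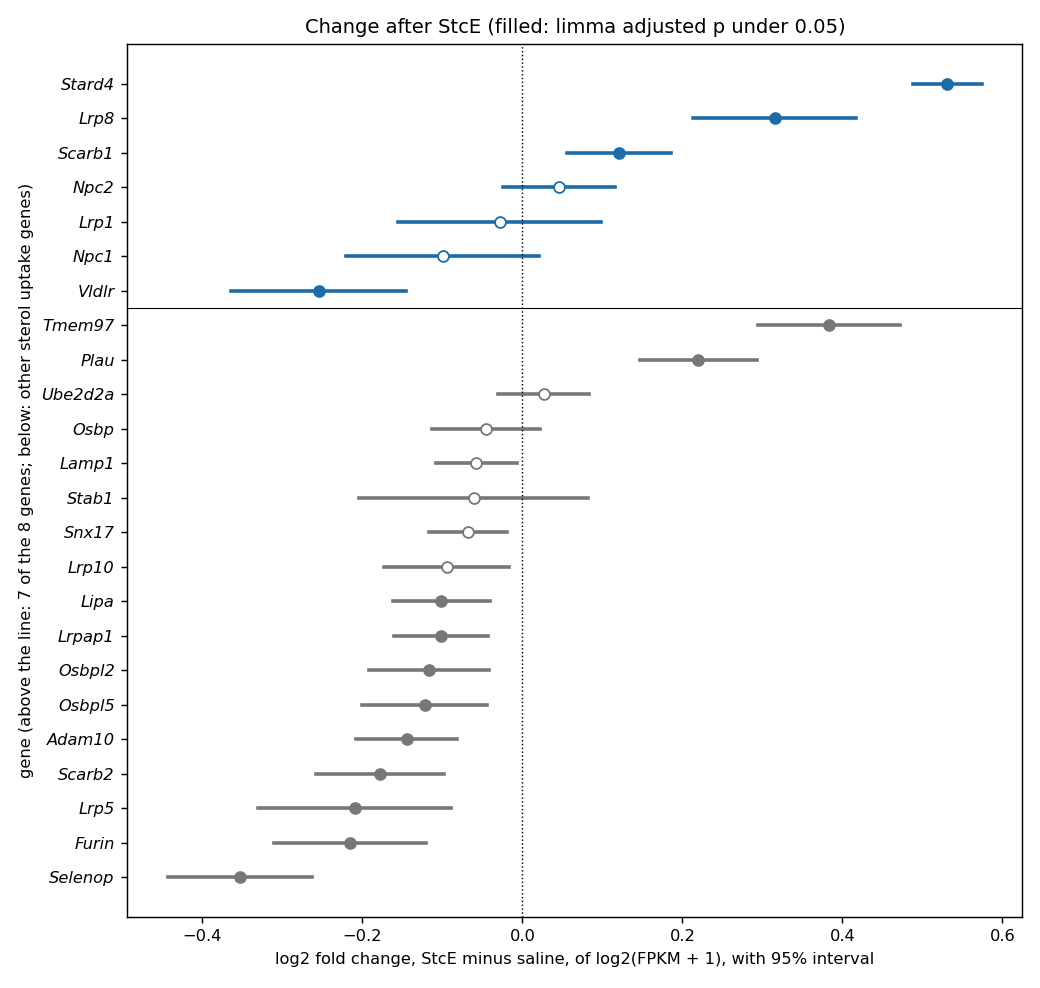
Log2 fold change of each tested member, and below the line of other sterol uptake genes, after StcE against saline on the log2(FPKM + 1) scale. Lines are 95% intervals from limma, n = 5 per group. Filled points mark called genes, which for the members is a description. Stard4 at 0.53 and Lrp8 at 0.32 lie furthest above 0 among the members, Vldlr at -0.25 lies furthest below, and the intervals of Lrp1, Npc1 and Npc2 include 0.

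Ordered by level in saline, *Npc2* at 30.6 FPKM was followed by *Stard4* at 17.3, *Scarb1* at 9.35, *Lrp8* at 7.71, *Vldlr* at 4.31, *Npc1* at 3.86, *Lrp1* at 1.16 and *Mylip* at 0.333 FPKM. Of these neighbours, the sample ranges of *Vldlr* and *Npc1* overlapped. After StcE the ranges of *Scarb1* and *Lrp8* also overlapped, at means of 10.3 and 9.83 FPKM, and *Npc1* at 3.54 FPKM stood beside *Vldlr* at 3.46 FPKM, again with overlapping ranges. By these values the overlap of *Lrp8* with *Scarb1* was seen after StcE and not in saline, whereas that of *Vldlr* with *Npc1* was seen in both groups. The order and the overlaps between genes depend in part on the exonic lengths used.

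The genes whose pattern over the 10 samples was most like that of each member were found by Pearson correlation of log2(FPKM + 1), a description in which the difference between the groups has a part. *Vldlr* was closest to *Ifngr1* (r = 0.980), *Pparg* (r = 0.976) and *Csf1* (r = 0.974). After the group means were removed these correlations were still 0.917, 0.943 and 0.915. Each member's nearest genes were picked for likeness over these same samples, so their values within groups follow in part from that choice. *Lrp8* was closest to *Scd2* (r = 0.969), *Fasn* (r = 0.969) and *Aacs* (r = 0.962), which act in the synthesis of fatty acids and in the use of ketone bodies for lipid synthesis, with 0.837, 0.929 and 0.761 after removal of the group means. *Stard4* was closest to *Sqle* (r = 0.998) and *Msmo1* (r = 0.996), enzymes of sterol synthesis, but here the values after removal of the group means were 0.0715 and -0.588. For these enzymes the likeness to *Stard4* therefore lay in the difference between the groups. *Stard4* varied little within the groups (coefficient of variation 0.940% in saline and 1.37% after StcE), so its correlations within them are uncertain.

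Among the remaining members, *Lrp1* was closest to *Baz2b* (r = 0.931), *Itpr1* (r = 0.919) and *Camta2* (r = 0.912), and *Scarb1* to *Nckap1* (r = 0.942), *Cdk8* (r = 0.941) and *Ucp2* (r = 0.940). The exporter *Npc1* was closest to *Dnajc5* (r = 0.967), *Dhx8* (r = 0.958) and *Ddx3x* (r = 0.940), and *Npc2* to *Ngdn* (r = 0.940), *Alkbh3* (r = 0.907) and *Gm25835* (r = 0.895).

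The wider pathway was read from 75 further genes in 7 role groups, of which 72 were in the table and 57 passed the filter. Of those 57, 2 were higher and 9 lower after StcE, or 19.3% called beside 11.9% of all genes tested, and their median log2 fold change was -0.04. This count rests on single libraries. It fell to 6 without saline replicate 1, StcE replicate 1 or StcE replicate 3, and to 7 without saline replicate 4, StcE replicate 5 or StcE replicate 6.

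**Figure D3:**
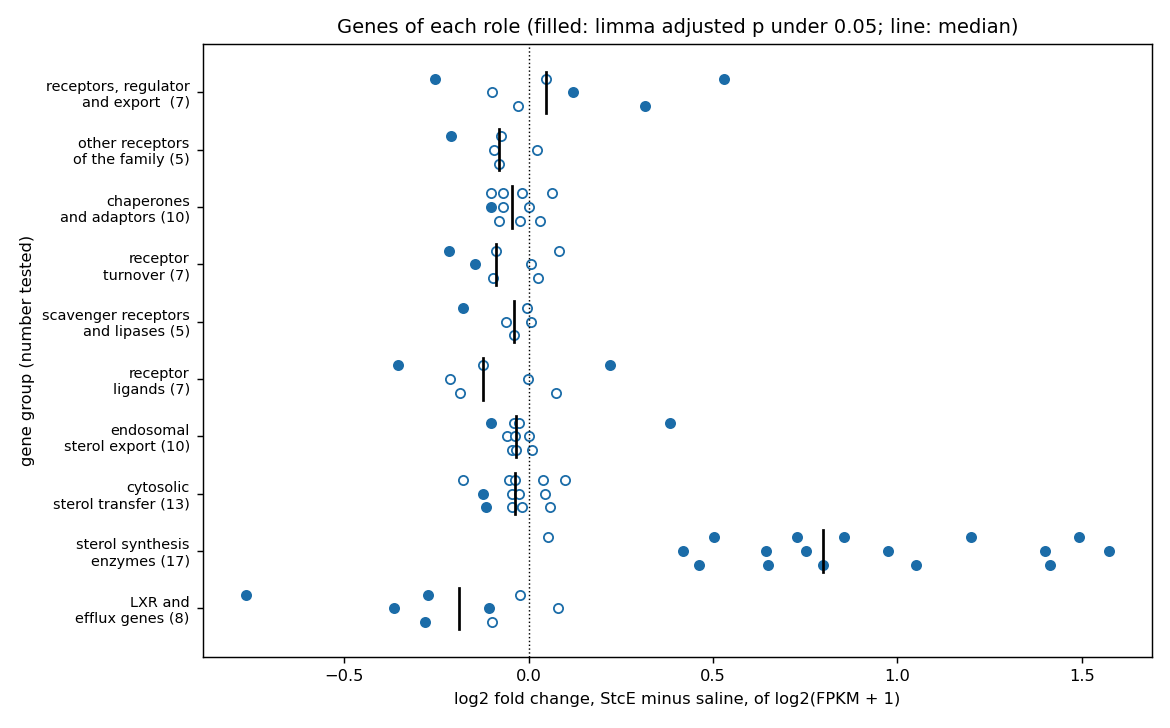
Log2 fold change after StcE against saline, on the log2(FPKM + 1) scale, for each tested gene of the members, the 7 role groups and the comparison lists. Each point is a gene, filled where the gene was called, and the genes of the role groups lie between -0.35 and 0.38 whereas the medians (lines) of the sterol synthesis and the LXR and efflux genes lie at 0.80 and -0.19.

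Among other receptors of the family the median log2 fold change was -0.08. Of 5 tested genes 1 was lower and none was higher, or 20% called beside 11.9% of all genes tested. This gene was *Lrp5*, a co-receptor for Wnt ligands, which fell from 42.8 ± 3.03 to 36.9 ± 2.59 FPKM (SD, n = 5 each; log2 fold change -0.21, limma adjusted p = 0.0310). Its call was lost without saline replicate 1 (-0.19), saline replicate 4 (-0.18), StcE replicate 1 (-0.18) or StcE replicate 3 (-0.18). The most highly expressed receptor that was not called, *Lrp10*, had means of 32.2 and 30.1 FPKM (limma adjusted p = 0.108).

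Of 10 tested chaperones and endocytic adaptors, 1 was lower, or 10% called beside 11.9% of all genes tested, with a median of -0.05. *Lrpap1*, the chaperone that keeps ligands off newly made receptors in the secretory pathway, fell from 15.7 ± 0.588 to 14.5 ± 0.132 FPKM (SD, n = 5 each; log2 fold change -0.10, limma adjusted p = 0.0323). The call on *Lrpap1* held without saline replicate 3, saline replicate 4 or StcE replicate 2 and was lost without any 1 of the other libraries, at changes between -0.12 and -0.09 over all such fits. The sorting nexin *Snx17*, which recycles receptors from endosomes, was at 60.6 and 57.7 FPKM and was not called (limma adjusted p = 0.0683).

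Genes of receptor shedding and turnover included 2 that were lower of 7 tested, or 28.6% called beside 11.9% of all genes tested. Their median was -0.09. *Furin*, the convertase that processes LRP1 and other proproteins, was at 19.7 to 22.2 FPKM in saline and at 17.0 to 19.4 FPKM after StcE, without overlap (log2 fold change -0.22, SE 0.0435, limma adjusted p = 0.0088). *Adam10*, a membrane protease that sheds surface receptors, fell from 66.6 ± 1.75 to 60.1 ± 2.20 FPKM (SD, n = 5 each; log2 fold change -0.14, limma adjusted p = 0.0085). No library, when left out, ended the call on *Furin* or *Adam10*. Both calls were lost when the replicate number was added to the fit, which rests on 8 samples. The ubiquitin-conjugating enzyme *Ube2d2a* was not called, at 36.8 and 37.5 FPKM.

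Among scavenger receptors and lipases, 1 of 5 tested genes was lower, or 20% called beside 11.9% of all, with a median of -0.04. *Scarb2* encodes the lysosomal membrane protein LIMP-2, a relative of SCARB1 that works inside the cell. It was at 23.9, 24.1, 24.0, 23.1 and 23.4 FPKM in saline and at 19.3, 22.1, 19.8, 21.9 and 21.2 FPKM after StcE, without overlap (log2 fold change -0.18, SE 0.0365, limma adjusted p = 0.0098). *Scarb2* and *Scarb1* thus differed in direction, and both lost their calls when the replicate number was added to the fit. *Stab1*, a scavenger receptor of endothelium, had means of 72.7 and 69.6 FPKM and was not called (limma adjusted p = 0.593).

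Ligands of the receptors included 1 higher and 1 lower gene of 7 tested, or 28.6% called beside 11.9% of all. Their median was -0.12. *Selenop*, the selenoprotein P that LRP8 takes up, was at 6.73, 5.95, 6.79, 6.11 and 6.01 FPKM in saline and at 4.65, 4.49, 4.67, 4.92 and 4.90 FPKM after StcE (log2 fold change -0.35, SE 0.0411, limma adjusted p = 0.0003). The ligand *Selenop* was therefore lower in the same samples in which its receptor *Lrp8* was higher. Part of the *Selenop* sequence is shared, so its level is uncertain to that extent. A stretch of the *Selenop* transcript has a near-identical copy in 1 other gene. On the opposite strand, 15.4% of the *Selenop* exonic length is overlapped by another gene. Whether the copy and the overlap are the same stretch was not tested.

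*Plau*, the urokinase that is cleared from the cell surface by LRP1 and VLDLR, was at 274.2, 284.2, 264.4, 293.0 and 286.4 FPKM in saline and at 330.0, 315.1, 331.0, 343.2 and 314.7 FPKM after StcE. It rose by a log2 fold change of 0.22 (SE 0.0334, limma adjusted p = 0.0018), and the saline and StcE groups of *Plau* did not overlap.

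In endosomal sterol export 1 gene was higher and 1 lower of 10 tested, or 20% called beside 11.9% of all. The median was -0.03. *Tmem97*, the sigma-2 receptor, a membrane protein known to bind NPC1 and to respond to sterol loss, was at 31.9, 34.1, 30.4, 30.7 and 28.7 FPKM in saline and at 40.1, 41.0, 43.1, 40.9 and 39.6 FPKM after StcE. Its log2 fold change was 0.38 (SE 0.0407, limma adjusted p = 0.0002), larger than that of any member other than *Stard4*, although 38.5% of the *Tmem97* transcript has a near-identical copy. *Lipa*, the lysosomal acid lipase that frees cholesterol from its esters, was at 32.6 ± 0.712 and 30.3 ± 1.10 FPKM (SD, n = 5 each; log2 fold change -0.10, limma adjusted p = 0.0371). The groups of *Lipa* overlapped, and its call held without saline replicate 5 or StcE replicate 2 but was lost without any 1 of the other libraries, at changes between -0.12 and -0.09. *Lamp1*, a major lysosomal membrane protein, was not called, at 225.4 and 216.5 FPKM (limma adjusted p = 0.131).

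Of 13 tested genes for sterol transfer in the cytosol and esterification, 2 were lower and none higher, or 15.4% called beside 11.9% of all. Their median was -0.04, and none of the other carriers in this group was called in the direction of *Stard4*. The oxysterol-binding relatives *Osbpl5* and *Osbpl2* had log2 fold changes of -0.12 and -0.12 (limma adjusted p = 0.0452 and 0.0480). *Osbpl5* kept its call without saline replicate 2 and lost it without any 1 of the other libraries, at changes between -0.14 and -0.10, and *Osbpl2* lost its call whichever library was left out, at changes between -0.13 and -0.10. *Osbp*, which exchanges cholesterol for a phosphoinositide at membrane contacts, was not called (log2 fold change -0.05, limma adjusted p = 0.369).

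**Figure D4:**
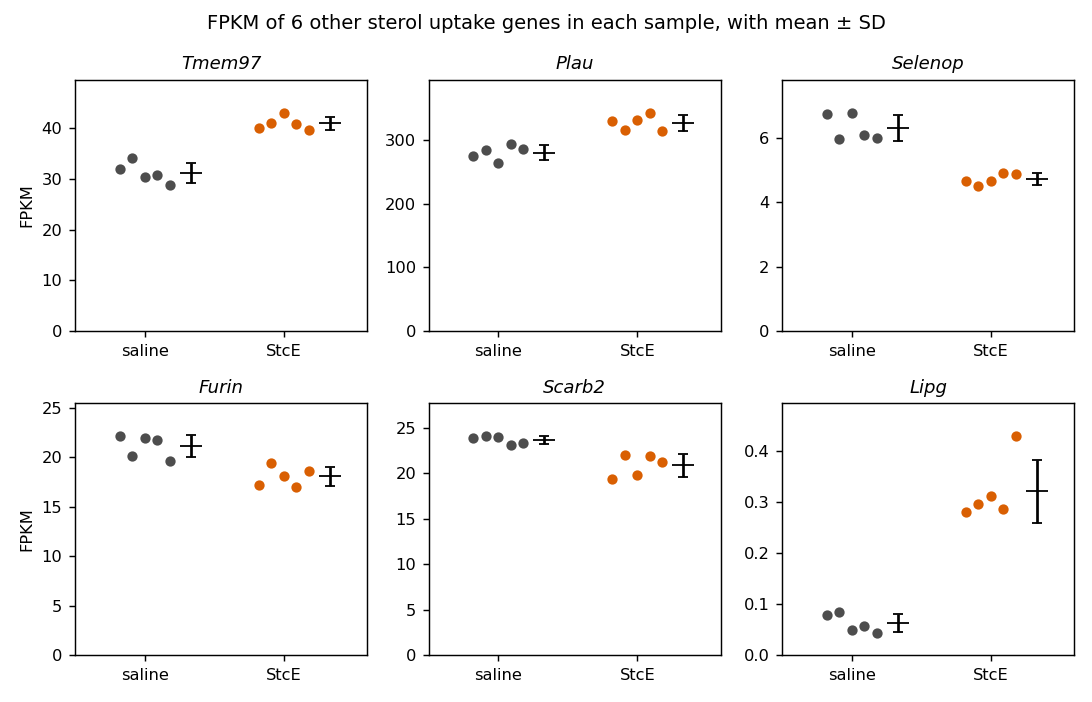
FPKM of selected genes around the lipoprotein receptors in bEnd.3 cells, by sample (5 with saline, 5 with StcE). Points are samples and bars are means with the SD; Tmem97 and Plau are higher after StcE, Selenop, Furin and Scarb2 are lower, and Lipg stays below 1 FPKM in every sample.

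For scale, 16 of 17 tested genes of sterol synthesis were called higher after StcE, beside 5.52% of all genes tested. Their median log2 fold change was 0.80, and the largest was that of *Cyp51* at 1.57. Of 8 tested genes of LXR signalling and cholesterol efflux, 5 were called lower, beside 6.41% of all. Their median was -0.19, and the largest change was that of *Abca1* at -0.77. The members' changes, from -0.25 to 0.53, were smaller than the median of the synthesis genes. Of the called members, *Lrp8*, *Scarb1* and *Stard4* had the sign of the synthesis genes and *Vldlr* that of the efflux genes. This compares signs alone, and whether the members share a control with either list was not tested.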

How the data were processed

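bEnd.3 cells treated with saline or StcE (n = 5 each) were profiled by bulk RNA-seq from directional poly(A) libraries. Per the labels, the submitters' processing notes name HISAT2 2.0.5, featureCounts 1.5.0-p3 and DESeq2 1.32.0 with build mm10; the annotation release and strand setting are not given in the sources used here. The authors deposited a table of FPKM values per gene; 22874 empty rows were left out. With GENCODE vM21 gene lengths, 96.6% of the values above 0 were whole fragments (tolerance 0.05), but not those of *Npc1* or *Lipg*. FPKM values are relative to the library total, so a change in abundant transcripts shifts all others.

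Genes with a mean of at least 1 FPKM were tested with limma 3.58.1 in R 4.3.3 on log2(FPKM + 1) with a mean-variance trend and Benjamini-Hochberg adjustment (adjusted p below 0.05). This scale understates changes of low genes. The procedure was tested on simulated data. Counts of replicates were further apart than sampling noise, so none was treated as a duplicate. Near-identical copies were searched with BLAST 2.17.0, and no member had one. Gene positions are from GENCODE vM21 (GRCm38), matched by name. The members and all gene lists were chosen with earlier results of these data known.

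Named were all members; from each role group the genes past the threshold, at most the 4 largest, and the most highly expressed gene not past it; for each tested member the 3 genes with the highest Pearson r; and from the comparison lists the largest change. Some genes that this rule names are not reported here. Other pseudocounts, filters, scalings, weights, a replicate block and omission of each sample were tried as alternatives, and 1 scaling, to the same total of recovered fragments, was added after seeing the data.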

Additional observations from a re-analysis of the deposited data

Results flagged for a closer look

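Samples that stood apart within a group of 5 were looked for in 50 groups, and 4 were found where chance gives about 1 in 20 groups, or 2.5. *Npc2* was at 33.2 FPKM in StcE replicate 1, against 30.9 to 31.6 FPKM in the other StcE samples. For *Lipa*, saline replicate 5 had 31.3 FPKM and the other saline samples 32.8 to 33.1 FPKM, while StcE replicate 2 had 32.2 FPKM and the other StcE samples 29.5 to 30.2 FPKM. *Lamp1*, likewise lysosomal, was at 223.6 FPKM in StcE replicate 2, against 213.2 to 215.6 FPKM in the others.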

How the results depend on the processing

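The number of genes called, 1320, was 801 with no filter on low values, 790 with all samples at the same total FPKM, 352 with the replicate block, which rests on 8 samples, 885 in the same 8 samples without the block, and between 793 (without StcE replicate 3) and 1257 when 1 sample was left out (837 without saline replicate 1). The 4 called members became 2 with the replicate block, 3 in the same 8 samples without it and 3 to 4 when 1 sample was left out. The 11 called pathway genes became 7 with no filter, 3 with the replicate block, 7 in the same 8 samples without the block and 6 to 10 when 1 sample was left out. Samples with the same number did not deviate together, so the numbers give no pairing (correlations of same-numbered deviations from -0.0966 to 0.0538, and 0 of 4 saline samples closest to their own number). As a description only, *Lrp8* and *Stard4* were called in 21 of 21 alternatives. *Vldlr* lost its call with the replicate block (-0.27), and *Scarb1* lost it there (0.10), in the 8 samples without the block (0.10), at the same total FPKM and without saline replicate 2 or 4. Of 148 refits of members, 1 reversed, *Lrp1*, which ran from -0.0581 to 0.0032 when 1 sample was left out. The cause of these shifts was not tested. *Mylip* had the fewest fragments of the members whose fragments were recovered, at 15 to 36 per sample.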

Other observations

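*Lipg*, the endothelial lipase, which acts on high-density lipoprotein at the vessel wall, lay below the filter and was picked out after its values were seen. It was at 0.0781, 0.0833, 0.0496, 0.0576 and 0.0435 FPKM in saline replicates 1 to 5 and at 0.281, 0.296, 0.312, 0.286 and 0.429 FPKM in StcE replicates 1, 2, 3, 5 and 6, without overlap. The means of *Lipg* were 0.0624 ± 0.0175 and 0.321 ± 0.0617 FPKM (SD, n = 5 each), a ratio of 5.14. No test is given, since the gene was chosen for this difference. Its fragments could not be recovered as whole numbers, so the counting error behind these low values is not known. *Usp2*, a deubiquitinase known to act on MYLIP, was also below the filter and also picked out after its values were seen. It was at 0.295 to 0.405 FPKM in saline and 0.214 to 0.284 FPKM after StcE, a gap of 0.0102 FPKM. The values of *Usp2* rest on 26 to 52 fragments per sample, so the separation is uncertain.

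Among the 21 pairs of tested members, deviations from the group means correlated most strongly for *Lrp8* and *Npc1* (r = 0.78 over 10 samples), and for *Lrp1* and *Npc2* with the opposite sign (r = -0.72). *Scarb1* and *Npc2* had r = -0.69, and *Npc1* and *Npc2*, the partners of endosomal export, had r = -0.64. The values of a sample share its library and its depth.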
